A study of Homo sapiens with 12 samples.

Results

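The 40 genes described here encode splicing regulators: the SR proteins, the TRA2 proteins, the CLK and SRPK kinases, the heterogeneous nuclear ribonucleoproteins (hnRNPs) and 3 large SR-related proteins. They were chosen by name, with earlier results of these data known, from the 35238 genes of the deposited table. All 40 were present and passed the filter on low values in each comparison. There were 12 SR protein genes (SRSF1 to SRSF12), 2 TRA2 genes (TRA2A, TRA2B), 6 kinase genes (CLK1 to CLK4, SRPK1, SRPK2), 17 hnRNP genes, and SRRM1, SRRM2 and SON.

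Bulk mRNA sequencing was performed in HK-2 cells, an immortalized human kidney proximal tubule line, in 4 groups of 3 replicates. All cells were transfected with 10 nM of siRNA, either scrambled (SCR) or siB, which targets POLR2A, the gene of the largest RNA polymerase II subunit, RPB1. At the same time they were given 25 µM aristolochic acid I (AAI), a nephrotoxic plant compound whose metabolites form DNA adducts, or an equivalent volume of its solvent DMSO, for 24 hours. The groups were therefore SCR DMSO, SCR AAI, siB DMSO and siB AAI. The study examined mRNA processing genes in injured mouse tubule cells, and the human cells were used to ask what lowering RPB1 does under injury. HK-2 is a single transformed line, and the labels do not say whether replicates came from separate cultures, so the p-values below measure the spread between these libraries, which may be technical.

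SR proteins bind exons through RNA recognition motifs and recruit the splicing machinery through a domain rich in arginine and serine, whereas many hnRNPs bind introns or exons and oppose the use of nearby splice sites. SRPK kinases phosphorylate SR proteins in the cytoplasm, which allows their import, and CLK kinases phosphorylate them further in the nucleus, which releases them from nuclear speckles. Many of these genes limit their own output by splicing in an exon that sends the transcript to nonsense-mediated decay. Most splicing occurs while RNA polymerase II is still on the gene, and the tail of RPB1 helps to bring splicing factors to the nascent RNA. The values below are sums over all transcripts of a gene and do not separate its isoforms.

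The promoters of SRSF6, SRSF3, SRSF7 and CLK1 are shown as examples. Each of these genes passed the test in some comparison below, as did other members, among them HNRNPD. Each line gives 80 bases just upstream of the annotated start, 5′ to 3′ on the gene's strand, from RefSeq on GRCh38.p14. Capitals mark matches, on either strand, to GGGCGG (the Sp box), CCAAT or TATAAA (the TATA box). The windows are chr20:43457813-43457892 (plus strand) for SRSF6, chr6:36594273-36594352 (plus) for SRSF3, chr2:38751495-38751574 (minus) for SRSF7 and chr2:200864692-200864771 (minus) for CLK1.
SRSF6: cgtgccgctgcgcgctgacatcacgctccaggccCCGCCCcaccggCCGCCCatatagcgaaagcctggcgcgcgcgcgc
SRSF3: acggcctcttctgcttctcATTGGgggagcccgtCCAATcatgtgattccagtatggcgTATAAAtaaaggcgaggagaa
SRSF7: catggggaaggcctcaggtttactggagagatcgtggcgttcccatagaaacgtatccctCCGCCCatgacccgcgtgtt
CLK1: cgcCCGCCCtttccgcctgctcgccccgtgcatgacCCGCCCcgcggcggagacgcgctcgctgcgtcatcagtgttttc

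The SRSF6 and CLK1 windows each held 2 Sp boxes in reverse orientation and no TATA box, whereas the SRSF3 window held 2 CCAAT boxes and a TATA box. RefSeq promoters, from 250 bases before to 50 after the start, were matched for 37 of the 40 genes, and those of HNRNPA1, SRSF2 and TRA2A are not shown. The 8 motifs searched, on both strands, were the TATA box TATAAA, the CCAAT box, the Sp box GGGCGG, the cyclic AMP response element TGACGTCA, the E-box CACGTG, the NRF1 motif GCATGCGC, the ETS motif CCGGAAG and the Kaiso motif CTCGCGAG, and matches that overlapped were all counted. GGGCGG was present in 23 of the 37 (62.2%) against 69.7% of 10601 promoters of expressed genes, and CCAAT in 16 (43.2%) against 36.3%. TATAAA was present in 5 (13.5%) against 5.65%, and CACGTG in 8 (21.6%) against 10.0%. CTCGCGAG was found in 4 promoters (10.8%), those of HNRNPK, HNRNPUL1, SRSF4 and SRSF10, against 1.98% of expressed genes. The remaining motifs were rarer than among expressed genes: CCGGAAG was in 4 promoters (10.8% against 18.3%), GCATGCGC in 1 (2.70% against 5.28%) and TGACGTCA in none (0% against 3.18%). Such matches describe the letters of the window and do not show that a factor bound there.

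Library depth, recovered from the deposited values, ran from 15844015 to 42805294 reads, so that 3 reads, the limit that a count of 0 allows, corresponded to 0.0701 to 0.189 counts-per-million (CPM); such limits cover counting error only. The knockdown target behaved as labelled in every library. With SCR, POLR2A stood at 258, 288 and 306 CPM without AAI and at 673, 719 and 729 CPM with it. With siB it stood at 138, 143 and 139 CPM without AAI and at 266, 220.4 and 210.3 CPM with it. It was lower with siB than with SCR under AAI (log2 change -1.61 ± 0.15 (SE), limma adjusted p = 0.000582) and in DMSO (-1.01 ± 0.13, adjusted p = 0.505, groups not overlapping), and it rose with AAI in both SCR cells (1.32 ± 0.19, adjusted p = 0.00321) and siB cells (0.72 ± 0.11, adjusted p = 0.0006). The siB AAI libraries overlapped those of SCR DMSO. Of the 5 epithelial markers, KRT8 (526 to 809 CPM) and KRT18 (262 to 448 CPM) were high in all libraries, KRT19 (62.4 to 604 CPM) and EPCAM (97.4 to 234 CPM) varied more, and CDH1, the gene of E-cadherin, was low (2.76 to 25.2 CPM). Of the 12 proximal tubule markers PAX8 (199.9 to 418 CPM) and GGT1 (96.0 to 184 CPM) were present, SLC5A2 (3.13 to 20.1 CPM) was low, and the transporter gene SLC22A6 was at 0 in all libraries but siB AAI replicate 1 (0.0631 CPM, below the limit for a count of 0). Of the 6 endothelial and immune genes, CD3E was at 0 in all libraries, KDR reached at most 0.0467 CPM and CDH5 at most 0.369 CPM, PECAM1 (0.864 to 5.55 CPM) and PTPRC (0.223 to 2.91 CPM) were low but measurable, and CD68, a lysosomal gene used as a macrophage marker, was well expressed in all libraries (58.7 to 97.8 CPM). Of the 6 fibroblast markers COL1A1 (6.92 to 50.05 CPM) and LUM (13.2 to 40.4 CPM) were the highest.

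The splicing regulators were abundant, and together they took 10421 ± 1931 CPM (SD, n = 3) without and 11415 ± 1945 CPM with AAI in SCR cells, and 9669 ± 1102 CPM without and 9967 ± 362 CPM with it in siB cells. These sums overlapped between groups. Compared per kilobase of transcript, so that genes of different length can be ranked, HNRNPK, a poly(C)-binding hnRNP, was highest at 271 CPM per kb, followed by SRSF2, a speckle-resident SR protein, at 213 CPM per kb. At the other end were SRSF8 (4.49 CPM per kb), CLK4 (3.47) and SRSF12 (2.50). HNRNPA1 has 76 named pseudogene copies in the table, whose reads came to 2.09% of its own, and for the other members the copies came to at most 0.321%.

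Most of these genes are short. On hg38 with GENCODE release 44, 26 of 40 (65%) spanned under 30 kb against 47.6% of 13408 expressed genes, 13 (32.5%) spanned 30 to 100 kb, and only SRPK2 (chromosome 7, 105110704 to 105399308, minus strand, 288.605 kb) was longer than 100 kb, against 19.4% of expressed genes. SRSF6 lies on chromosome 20 (43457893 to 43466046, plus strand, 8.154 kb), SRSF3 on chromosome 6 (36594353 to 36605600, plus, 11.248 kb), SRSF7 on chromosome 2 (38743599 to 38751494, minus, 7.896 kb) and HNRNPD on chromosome 4 (82352498 to 82374503, minus, 22.006 kb). The median GC content of the members' transcripts was 42.0%, against 48.9% over expressed genes.

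**Figure D1:**
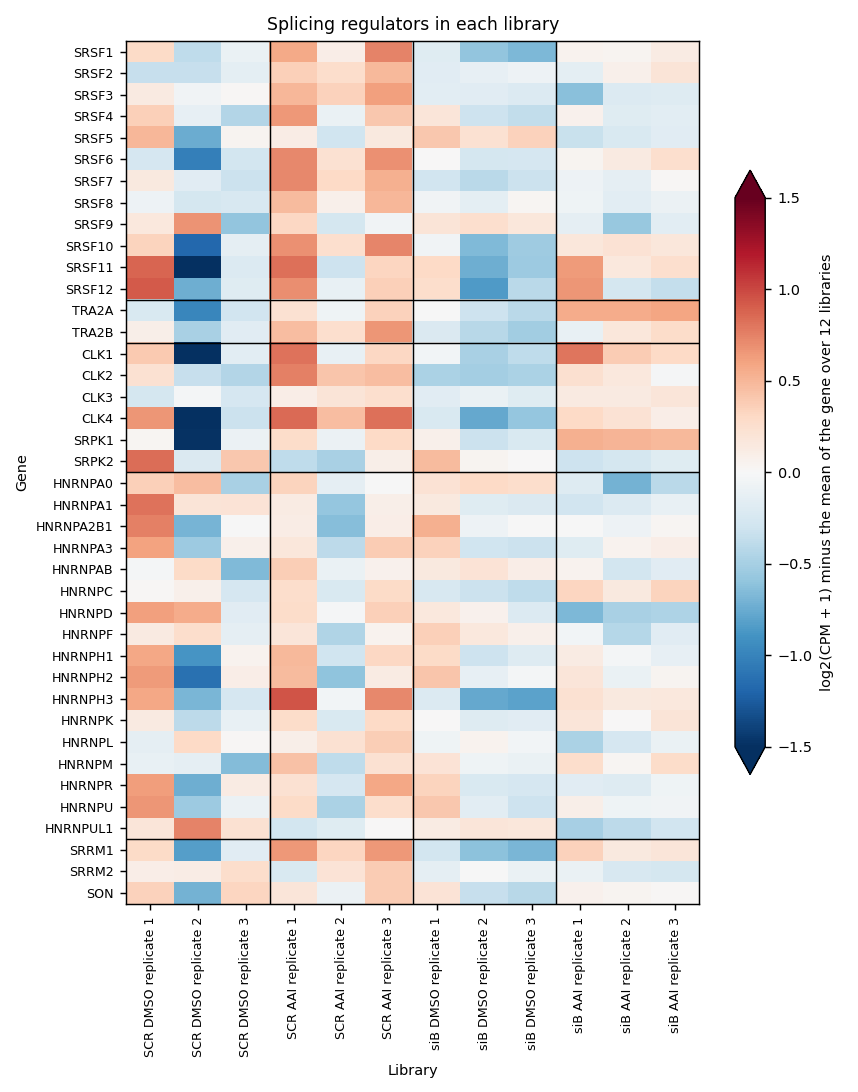
Level of each of the 40 splicing regulators (rows, in blocks by role) in each of the 12 libraries (columns), as log2(CPM + 1) minus the mean of the gene over all libraries; red is above that mean and blue below it. SCR DMSO replicate 2 is deep blue for SRSF11, CLK1, CLK4 and SRPK1, and SCR AAI replicates 1 and 3 are red for most SR proteins.

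The replicates within a group did not agree equally well for these genes. The median SD of log2(CPM + 1) over the 40 genes was 0.46 in SCR DMSO, 0.28 in SCR AAI, 0.20 in siB DMSO and 0.11 in siB AAI, against 0.38, 0.25, 0.15 and 0.18 over all expressed genes. Within SCR DMSO, replicate 2 was the lowest library for 26 of the 40 members (52.4% of expressed genes) and replicate 1 the highest for 30 (51.0%). The widest fold range was that of CLK4, a nuclear SR kinase, at 12.9, 2.06 and 5.99 CPM in the 3 SCR DMSO libraries (6.27-fold). By the SD of log2(CPM + 1), SRSF11 was the widest in that group (1.23). SRSF11 stood at 244, 43.7 and 114 CPM and CLK1, the kinase that heads the CLK family, at 61.6, 12.5 and 42.0 CPM. For all 3 genes replicate 2 was the low library.

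The difference between SCR DMSO replicate 2 and its fellow replicates went with transcript GC content. Across the 40 members, Pearson's r between GC content and that difference was 0.64, and it was 0.71 across 13408 expressed genes, as a description across genes that share the same libraries. Members of low GC content such as CLK1 (38.6% GC), CLK4 (37.3%) and SRSF11 were low in replicate 2, and members of high GC content such as HNRNPUL1 (54.9%) and SRSF9 were high. Within SCR AAI, replicate 2 was the lowest library for 36 of 40 members (50.8% of expressed genes). In that library the transcript AC010970.2, at 105566 CPM, took the largest share of all 12 libraries (1887 CPM in SCR DMSO replicate 1), and with CPM computed without it replicate 2 was still lowest for 31 members (38.8% of expressed genes). The part of GC content and of AC010970.2 in the differences below was not tested beyond the values given beside them.

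**Figure D2:**
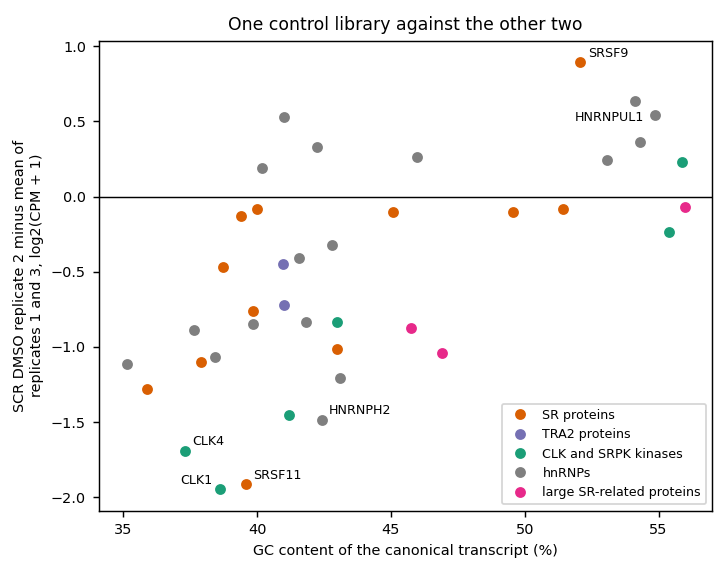
For each of the 40 genes, coloured by role, the GC content of its canonical transcript (x axis, %) against its log2(CPM + 1) in SCR DMSO replicate 2 minus the mean of replicates 1 and 3 (y axis). Points rise from lower left (CLK1, CLK4, SRSF11) to upper right (SRSF9, HNRNPUL1), with Pearson's r = 0.64 over 40 genes.

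In SCR cells, changes with AAI were mostly above 0 for the SR protein genes, the TRA2 genes and the kinases, but SRSF6 alone passed the test. In bulk RNA of this kind, fewer cells of a type and less RNA per cell cannot be told apart. The median log2 change was 0.54 for the 12 SR protein genes, of which 11 were above 0, 0.66 for both TRA2 genes, 0.70 for the 6 kinases, 0.13 for the 17 hnRNPs and 0.17 for the large SR-related proteins. Over all 40 members it was 0.28, with 31 above 0 and 9 below, against 0.18 over the 14228 genes tested. With median-ratio scaling the median of all genes moved from 0.18 to -0.02 and that of the members from 0.28 to 0.075, so the gap between them was about as wide. Over all genes, that scaling gave 1072 higher and 826 lower calls in place of 1277 and 478.

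At an adjusted p under 0.05, 1 member was higher, against 8.98% of genes tested, and 0 were lower, against 3.36%. With a 2-fold limit in addition, the same 1 was higher (7.73% of genes) and 0 lower (2.73%). At an unadjusted p under 0.05, limma had 9 members higher, against 17.9% of genes tested, and 1 lower, against 9.1%, and voom called 1 higher and 0 lower after adjustment. With all 4 groups in the fit 9 were higher, against 18.1% of genes, and 1 lower, against 8.6%. The levels of 10 members were higher in every SCR AAI library than in any SCR DMSO library, against 22.2% of genes tested, and those of 2, HNRNPA1 and HNRNPUL1, were lower in every library, against 11.5%. The 10 were SRSF2, SRSF3, SRSF6, SRSF7, SRSF8, TRA2A, TRA2B, CLK2, CLK3 and SRRM1. The members' shares were close to these backgrounds or below them.

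SRSF6, an SR protein that promotes the inclusion of exons with purine-rich enhancers, stood at 207, 120.2 and 202 CPM in SCR DMSO against 405, 288 and 396 CPM in SCR AAI. All 3 treated libraries were above all 3 controls, with replicate 2 the lowest of both groups. The log2 change was 1.06 ± 0.28 (limma adjusted p = 0.0433). Over 14 alternative settings the change ran from 0.81 to 1.22 and the adjusted p from 0.00328 to 0.171; 7 of them left it past the threshold.

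SRSF2, an SR protein of nuclear speckles, stood at 312, 311 and 356 CPM in SCR DMSO against 506, 474 and 555 CPM in SCR AAI, without overlap (0.65 ± 0.19, adjusted p = 0.0642). CLK2, a kinase that phosphorylates SR proteins in the nucleus, stood at 43.7, 29.0 and 27.0 CPM and at 63.1, 49.9 and 51.4 CPM (0.73 ± 0.26, adjusted p = 0.115). Neither passed the unpaired test, although their groups did not overlap. Among members below 0, HNRNPUL1, an hnRNP that also acts at DNA ends, had the lowest p, at 337, 498 and 348 CPM in SCR DMSO against 246, 263 and 298 CPM in SCR AAI. Its groups did not overlap, but the change of -0.53 ± 0.22 did not pass (adjusted p = 0.175). The largest change of all was that of CLK4, at 12.9, 2.06 and 5.99 CPM against 14.8, 11.1 and 14.5 CPM (1.11 ± 0.51, adjusted p = 0.210), where the groups overlapped.

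Libraries of the same number deviated together between SCR AAI and SCR DMSO, and with the replicate number as a block 6 members were higher, against 14.7% of genes tested, and 0 lower, against 6.4%. The members' share of higher calls was close to that of all genes. The 6 were SRSF6 (adjusted p = 0.00764), SRSF10 (0.0352), SRRM1 (0.0368), CLK2 (0.038), SRSF7 (0.0473) and SRSF2 (0.0479). SRSF10, an SR protein that represses splicing when it loses phosphate, stood at 166, 57.5 and 119 CPM in SCR DMSO against 212, 156 and 219 CPM in SCR AAI, so each treated library exceeded its numbered control while the groups overlapped. SRRM1, a splicing coactivator, stood at 189, 87.5 and 138 CPM against 244, 194 and 245 CPM, without overlap.

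Without SCR DMSO replicate 2, the changes of several members of low GC content were smaller. The median member change fell from 0.28 to 0.22, against 0.064 over all genes, 24 members were above 0 and 11 changed sign. The SR protein genes had a median of 0.40 with 9 of 12 above 0, and the hnRNPs one of -0.07 with 7 of 17 above 0. CLK1 went from 0.87 to 0.22, SRSF11 from 0.59 to -0.05 and CLK4 from 1.11 to 0.54. SRSF6 remained higher (0.81 ± 0.22, adjusted p = 0.0234), and SRPK2, a cytoplasmic SR kinase, was then lower (-0.88 ± 0.26, adjusted p = 0.0301, against -0.60 with all libraries). Without that library 13.5% of all genes were called higher and 8.7% lower.

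**Figure D3:**
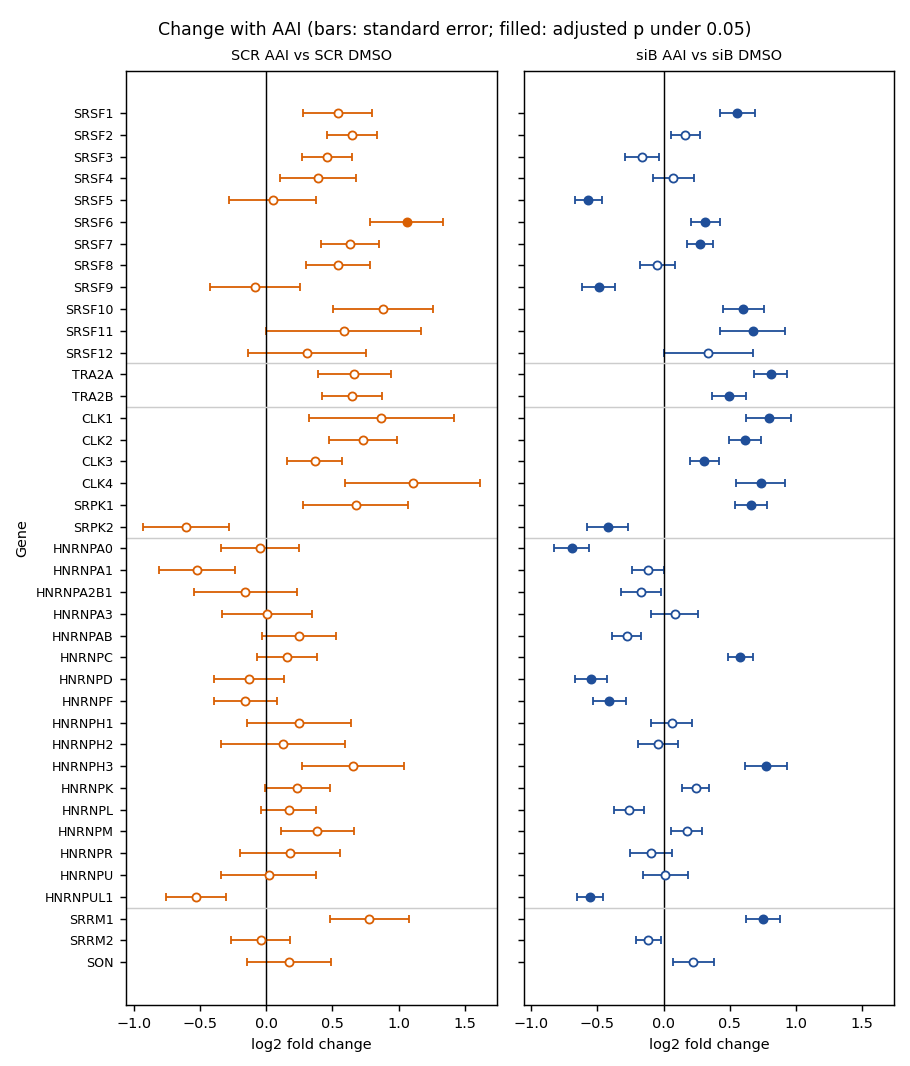
log2 fold change with AAI (x axis) of the 40 splicing regulators (y axis) in SCR cells (left) and siB cells (right); bars are standard errors and filled points have an adjusted p under 0.05. SRSF6 is the 1 filled point on the left, whereas 22 points are filled on the right, 15 above 0 and 7 below.

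In siB cells, in which replicates lay closer together, the regulators rose and fell with AAI. Of the kinases 5 of 6 rose, as did both TRA2 genes, while of the 17 hnRNPs 4 fell and 2 rose. Of the 12 SR protein genes 5 were higher (SRSF1, SRSF6, SRSF7, SRSF10, SRSF11) and 2 lower (SRSF5, SRSF9), and of the large proteins SRRM1 was higher. In total 15 members were higher, against 30.4% of the 14928 genes tested, and 7 were lower, against 21.8%. None passed the 2-fold limit in either direction at this adjusted p, with 13.9% of genes higher and 5.79% lower at that limit. The median change was 0.12 over the members and 0.10 over all genes. With median-ratio scaling 12 members were higher, against 26.5% of genes, and 9 lower, against 27.4%, since CLK3, SRSF6 and SRSF7 no longer passed and HNRNPAB and HNRNPL then did. The median was 0.26 without siB DMSO replicate 1, 0.040 without siB DMSO replicate 2 and 0.054 without siB DMSO replicate 3.

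TRA2A, which binds exonic enhancers rich in GAA, had the largest rise. It stood at 52.4, 42.3 and 39.7 CPM in siB DMSO against 77.8, 78.3 and 79.7 CPM in siB AAI (0.81 ± 0.13, adjusted p = 0.000663). CLK1 rose from 45.6, 33.3 and 35.7 CPM to 82.4, 61.2 and 57.8 CPM (0.79 ± 0.17, adjusted p = 0.0036). For both genes all AAI libraries were above all DMSO libraries. HNRNPH3, a member of the G-run binding H/F hnRNPs, rose from 83.0, 55.8 and 54.5 CPM to 112, 106 and 107 CPM (0.77 ± 0.16, adjusted p = 0.00305). SRRM1 rose from 128, 101 and 96.5 CPM to 198, 172 and 176 CPM (0.75 ± 0.13, adjusted p = 0.00105). Neither pair of groups overlapped. The other CLK genes rose as well: CLK4 by 0.73 ± 0.18, CLK2 by 0.61 ± 0.12 and CLK3 by 0.31 ± 0.11 on the log2 scale, and SRPK1 by 0.66 ± 0.12. SRPK2 moved the other way (-0.42 ± 0.15, adjusted p = 0.041), and the locus overlaps KMT2E on the opposite strand (64.9 CPM), whose reads cannot be told apart here because the use of strand in counting was not stated. The same limit holds for some members that rose. CLK3 overlaps EDC3 (41.6 CPM), CLK2 overlaps HCN3 (21.6 CPM) and HNRNPH3 overlaps RUFY2 (24.4 CPM), all on the opposite strand.

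HNRNPA0, an hnRNP that binds AU-rich elements, had the largest fall, from 249.5, 263 and 258 CPM in siB DMSO to 187, 131 and 162 CPM in siB AAI (-0.69 ± 0.13, adjusted p = 0.00187). SRSF5, an SR protein gene, fell from 148, 130.4 and 142 CPM to 88.6, 94.9 and 99.2 CPM (-0.57 ± 0.10, adjusted p = 0.0015). In both cases every AAI library was below every DMSO library. HNRNPUL1 fell from 324, 338 and 335 CPM to 209.6, 226 and 244 CPM (-0.55 ± 0.10, adjusted p = 0.00116), and it overlaps TGFB1 on the opposite strand (114 CPM). HNRNPD, known as AUF1, which directs the decay of mRNAs with AU-rich elements, fell from 274, 257 and 213 CPM to 153, 174 and 178 CPM (-0.55 ± 0.12, adjusted p = 0.00413). These groups did not overlap either. HNRNPF and SRSF9 completed the lower calls with SRPK2, and SRSF9 overlaps DYNLL1 on the opposite strand (164 CPM).

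With all 4 groups in the fit, which share the larger spread of SCR DMSO, 4 members were higher (TRA2A, SRRM1, CLK2, HNRNPC), against 20.7% of genes tested, and 2 lower (HNRNPA0, HNRNPUL1), against 13.7%. HNRNPC, which covers U-rich stretches in introns, rose from 561, 529.8 and 509.9 CPM to 828, 735 and 834 CPM (0.58 ± 0.10, adjusted p = 0.000949 in the fit of siB groups alone).

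**Figure D4:**
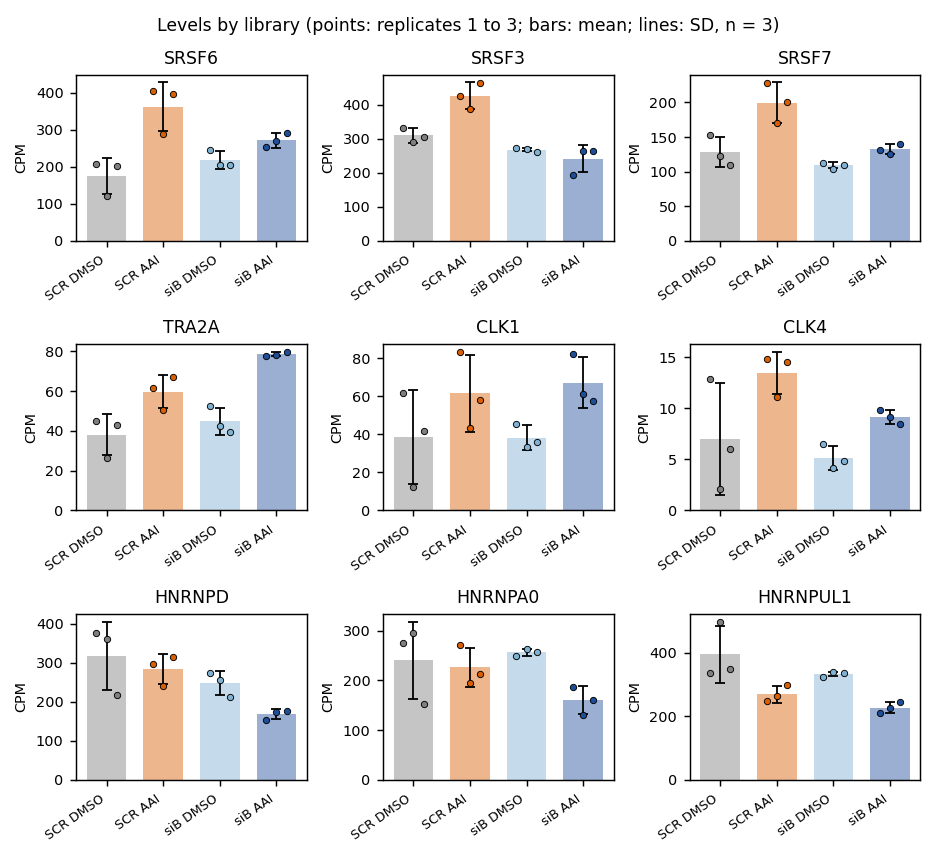
CPM of 9 named regulators in each library (points), with bars for the mean and lines for the SD (n = 3) of SCR DMSO, SCR AAI, siB DMSO and siB AAI. SRSF3 stands at 387 to 466 CPM in SCR AAI and at 195 to 264 CPM in siB AAI, and TRA2A is highest in siB AAI (77.8 to 79.7 CPM).

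Under AAI, SRSF3, SRSF7 and HNRNPD were lower in knockdown cells than in SCR cells, and the other 37 regulators did not pass the test. The SCR AAI libraries compared here are those of the AAI response above. The median change, siB AAI versus SCR AAI, was -0.39 for the SR protein genes, of which 11 of 12 were below 0, -0.14 for the hnRNPs, and -0.27 over all 40 members, against 0.00 over the 14946 genes tested. With an adjusted p under 0.05, 3 members were lower, against 3.79% of genes, and 0 were higher, against 5.49%. With the 2-fold limit 0 were lower (0.629% of genes) and 0 higher (3.04%). At an unadjusted p under 0.05 limma had 2 members higher, against 13.3% of genes tested, and 11 lower, against 12.2%, and voom called 0 higher and 3 lower. In 11 members every siB AAI library was below every SCR AAI library, against 15.8% of genes tested, and in 2, TRA2A and SRPK1, every one was above, against 15.1%.

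SRSF3, the smallest SR protein, which also couples splicing to 3′ end choice and export, stood at 427, 387 and 466 CPM in SCR AAI against 195, 264 and 264 CPM in siB AAI. Its groups were far apart. The siB AAI libraries overlapped those of siB DMSO (272, 269 and 262 CPM) and lay below those of SCR DMSO (332, 291 and 306 CPM). The change was -0.83 ± 0.17 (limma adjusted p = 0.0112). SRSF7, an SR protein with a zinc knuckle and a partner of SRSF3 in mRNA export, stood at 228, 169.8 and 201.2 CPM and at 131, 126 and 140.1 CPM (-0.58 ± 0.16, adjusted p = 0.0391). HNRNPD stood at 298, 242 and 316 CPM and at 153, 174 and 178 CPM (-0.75 ± 0.16, adjusted p = 0.014). No siB AAI library reached any SCR AAI library for these 3 genes. TRA2A had the lowest p among members above 0, at 61.7, 50.5 and 67.1 CPM in SCR AAI against 77.8, 78.3 and 79.7 CPM in siB AAI (0.40 ± 0.16, adjusted p = 0.140).

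Libraries of the same number also deviated together in this pair of groups, most of all those of replicate 1. Replicates 2 and 3 did so across numbers as well (r = 0.24 both ways, against 0.33 and 0.30 for the same number). With the replicate number as a block 13 members were lower, against 13.8% of genes tested, and 1 higher, against 15.2%. SRSF3 (adjusted p = 2e-07), HNRNPD (3.89e-06) and SRSF7 (0.000595) were joined by HNRNPL (0.00262), which binds CA repeats, HNRNPA0 (0.00343), CLK4 (0.0164), SRSF1, SRSF4, SRSF6, SRSF8, SRSF10, CLK2 and HNRNPH3. TRA2A was higher (0.0306). Of these 13, 7 are SR proteins. The unblocked calls depended on single libraries: 0 members were lower without SCR AAI replicate 3 (0.415% of genes), 1 without siB AAI replicate 1 (1.95%) and 8 without SCR AAI replicate 2 (2.9%), and SRSF7 lost its call in 7 of 14 alternatives.

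In DMSO, no member passed the test of the knockdown. At an adjusted p under 0.05, 0 members were higher and 0 lower, as were 0% and 0% of the 13606 genes tested, and no member had an unadjusted p under 0.05, against 3.52% of genes higher and 1.21% lower at that limit. voom called 0 as well. The median change was -0.07 over the members and 0.06 over all genes, with 17 members above 0 and 23 below, and its sign turned when SCR DMSO replicate 1 (0.13), siB DMSO replicate 2 (0.017) or siB DMSO replicate 3 (0.014) was left out. HNRNPM, a silencer-binding hnRNP, had the lowest p upwards, at 370.1, 364 and 254 CPM in SCR DMSO against 459, 382 and 372 CPM in siB DMSO (0.31 ± 0.20, adjusted p = 0.9998). HNRNPA1, which binds exonic and intronic silencers, had the lowest p downwards, at 1287, 835 and 844 CPM against 812, 643 and 629 CPM (-0.49 ± 0.22, adjusted p = 0.9998). Both pairs of groups stood apart by a narrow margin, and SCR DMSO was the group with the widest spread.

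**Figure D5:**
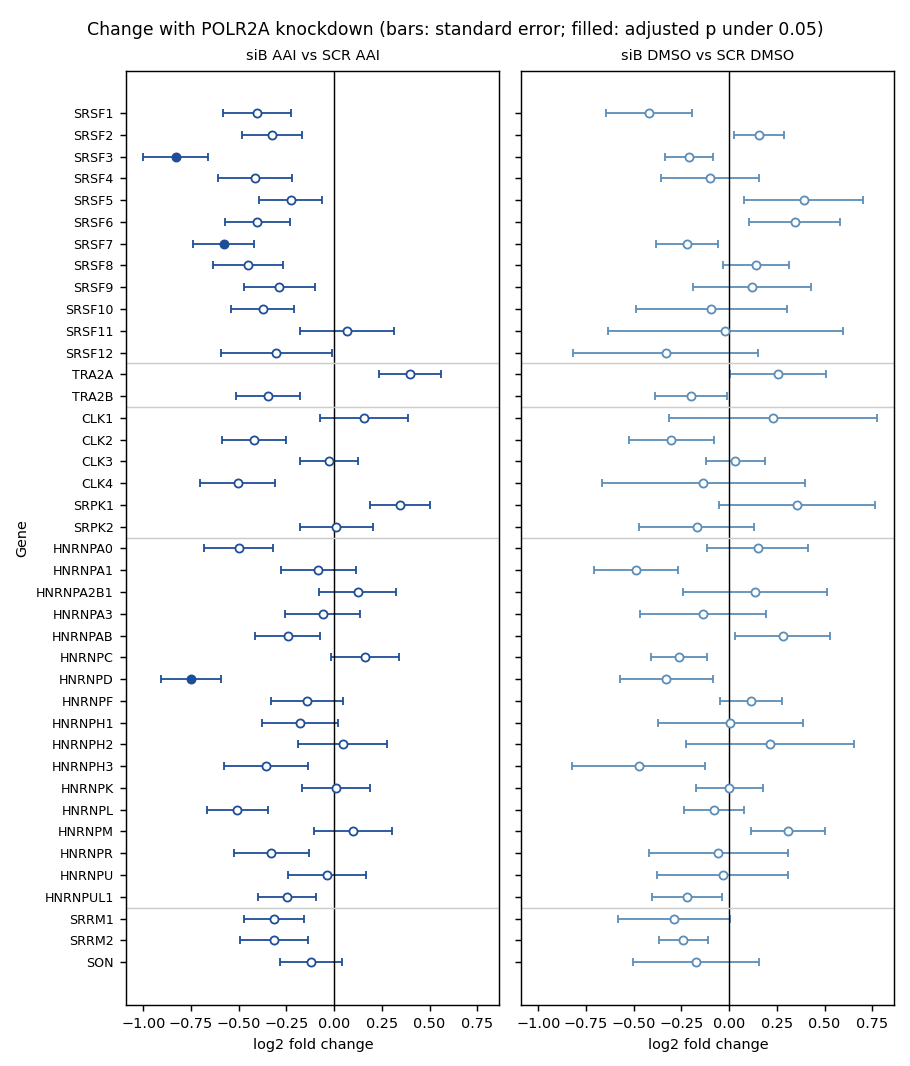
log2 fold change with POLR2A knockdown (x axis) of the 40 splicing regulators (y axis) under AAI (left) and in DMSO (right); bars are standard errors and filled points have an adjusted p under 0.05. SRSF3, SRSF7 and HNRNPD are filled on the left and none on the right.

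The difference between both AAI responses, siB minus SCR, was tested directly in a fit over all 4 groups. None of the 40 members passed, with 0 higher against 1.46% of the 15325 genes tested and 0 lower against 0.157%, and voom called 0 as well. At an unadjusted p under 0.05, 0 members were higher, against 6.75% of genes tested, and 4 lower, against 6.51%, and all 4 were SR proteins: SRSF2, SRSF3, SRSF6 and SRSF8. SRSF3 had the lowest p. Its level rose in SCR cells with AAI by 0.46 ± 0.19 on the log2 scale and changed by -0.17 ± 0.13 in siB cells, neither past the adjusted threshold (adjusted p = 0.167 and 0.301), and the difference of -0.62 ± 0.21 had an adjusted p of 0.192. In the other direction HNRNPC had the lowest p (0.42 ± 0.23, adjusted p = 0.483). The median difference over the members was -0.13, against -0.06 over all genes, and it was 0.12 without SCR DMSO replicate 2. That SRSF6 passed in SCR cells with a change of 1.06 and in siB cells with 0.32 ± 0.11 (adjusted p = 0.0377) is therefore not a tested difference (-0.75 ± 0.30, adjusted p = 0.298).

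Other genes of the splicing pathway were read from the same fits. With AAI in SCR cells, 0 of 47 core spliceosome genes were higher or lower (5 higher and 2 lower at an unadjusted p under 0.05), 0 of 16 other hnRNPs and relatives (1 and 0), and 0 of 16 genes for SR protein phosphorylation and import (3 and 0). Of 45 other splicing regulators 1 was higher, RBM10 (0.87 ± 0.23, adjusted p = 0.0495), and 1 lower, CELF2 (-1.09 ± 0.21, adjusted p = 0.0132). Of 18 genes of nonsense-mediated decay and the exon junction complex, the route that removes poison-exon transcripts of SR genes, 3 were higher, among them SMG9 (1.12 ± 0.24, adjusted p = 0.0223) and RBM8A (1.005 ± 0.21, adjusted p = 0.0197). The median of that list was 0.49 and that of the core spliceosome 0.29, against 0.18 over all genes. Over all genes tested in this comparison 8.98% were higher and 3.36% lower (17.9% and 9.1% at an unadjusted p under 0.05).

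With AAI in siB cells, 12 of 47 core spliceosome genes were higher and 7 lower, and of 45 other regulators 10 were higher and 5 lower. Of 16 other hnRNPs 1 was higher and 5 lower, of 16 phosphorylation and import genes 4 and 3, and of 18 decay and junction genes 6 and 4. Over all genes tested in this comparison 30.4% were higher and 21.8% lower. PTBP2, the neural relative of the polypyrimidine tract protein, rose by 1.002 ± 0.21, and PCBP1, a poly(C)-binding protein, fell (-0.58 ± 0.11). ESRP1 and ESRP2, the epithelial splicing regulators, fell (-0.98 ± 0.17 and -1.03 ± 0.13), and SMG1, the kinase that starts nonsense-mediated decay, rose by 1.31 ± 0.23.

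Cell type markers moved in the same comparison of siB AAI with siB DMSO. Of the epithelial markers 4 of 5 were lower, KRT19 the most (-1.66 ± 0.18, adjusted p = 6.86e-05), and EPCAM did not pass. Of the 5 proximal tubule markers tested ANPEP (1.85 ± 0.20) and SLC5A2 (1.55 ± 0.25) were higher and PAX8 (-0.58 ± 0.15) and GGT1 (-0.53 ± 0.10) lower. Of the fibroblast markers COL1A1 alone of 4 tested was lower (-1.37 ± 0.30, adjusted p = 0.00408). Of the endothelial and immune markers PTPRC (1.33 ± 0.18, adjusted p = 0.000303) and PECAM1 (1.39 ± 0.20, adjusted p = 0.000361) were higher, both at a few CPM or less, while CD68 did not pass (-0.16 ± 0.12). The summed level of the 6 endothelial and immune genes was 68.6 to 85.8 CPM in siB DMSO and 71.4 to 80.4 CPM in siB AAI, that of the 5 epithelial genes 1468 to 1637 CPM and 1107 to 1150.4 CPM, that of the 6 fibroblast genes 64.2 to 68.3 CPM and 47.7 to 55.0 CPM, and that of the 12 proximal tubule genes 563 to 587 CPM and 347 to 459 CPM. The part of these markers in the changes of the splicing regulators was not tested.

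Under AAI with knockdown, 2 of 16 other hnRNPs were lower, HNRNPDL, the closest relative of HNRNPD (-0.92 ± 0.18, adjusted p = 0.0107), and PCBP1 (-0.59 ± 0.15, adjusted p = 0.0298), and 1 of 47 core spliceosome genes was lower, SNRPA (-0.79 ± 0.16, adjusted p = 0.0122). Of the 44 other regulators tested, 2 were higher, RBFOX2 (0.80 ± 0.15) and MBNL2 (0.64 ± 0.18), and 2 lower, ESRP2 and PUF60. Of 18 decay and junction genes 0 were higher and 2 lower, SMG9 (-1.12 ± 0.19, adjusted p = 0.00486) and CASC3, an exon junction protein (-0.66 ± 0.15). Of the 16 phosphorylation and import genes 0 passed (2 higher and 1 lower at an unadjusted p under 0.05). Over all genes tested in this comparison 5.49% were higher and 3.79% lower (13.3% and 12.2% at an unadjusted p under 0.05). In DMSO no gene of any of these lists passed. Among the cell type markers KRT19 (-0.91 ± 0.21, adjusted p = 0.0182) and SLC34A1 (-0.77 ± 0.21, adjusted p = 0.0388) were lower in siB AAI than in SCR AAI, and ANPEP (1.49 ± 0.23, adjusted p = 0.00375), PECAM1 (1.23 ± 0.22, adjusted p = 0.00661) and PTPRC (0.82 ± 0.21, adjusted p = 0.0291) were higher, and all but KRT19 stood at no more than 5.55 CPM in any library. The summed endothelial and immune genes stood at 75.8 to 86.0 CPM in SCR AAI and the summed epithelial genes at 1171 to 1595 CPM. Their part in the lower values of SRSF3, SRSF7 and HNRNPD was not tested.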

How the data were processed

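RNA was extracted with Trizol, polyA-selected and converted with random hexamers. Per the study's methods, reads were aligned to hg38 and counted with a UCSC hg38 annotation on BioJupies; the aligner and the use of strand are not given in the sources used here. The authors deposited log10 of CPM plus 1. CPM was taken back as 10 to that value minus 1. The values were whole multiples of 1 read (100% within 0.1 read), which gave the depths. Groups came from the titles, because a treatment field read DMSO for all samples.

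limma 3.58.1 in R 4.3.3 (lmFit, eBayes with trend) was fitted to log2(CPM + 1), each pair of groups alone, keeping genes that reached 1 CPM in 3 or more of the fitted libraries, with Benjamini-Hochberg adjustment over all of them; every adjusted p is from limma, ± after a change is its SE, and changes understate those of low genes. limma was the main test because the study used it, and voom on the recovered reads was run as an alternative. The fit was checked on simulated data in which libraries varied independently and by the same amount in both SCR groups. That check did not cover the wider spread of SCR DMSO or libraries that deviate together. Same-numbered libraries correlated, across 14465 genes, at 0.43, 0.49 and 0.35 (SCR AAI and SCR DMSO) and 0.64, 0.33 and 0.30 (siB AAI and SCR AAI) in their deviations from group means, so blocked values are given there. Libraries of unlike number gave at most 0.16 for SCR AAI and SCR DMSO. For siB AAI and SCR AAI, replicates 2 and 3 gave 0.24 both ways. Each other pair of groups had a same-numbered value under 0.1. Those pairs gave 0.22, 0.025 and 0.21 (siB AAI and siB DMSO) and 0.74, 0.61 and -0.20 (siB DMSO and SCR DMSO).

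The members and gene lists were chosen with earlier results of these data known. Values per library are given for up to 4 called members per direction with the largest change, or else the member of lowest p; CLK2, CLK4, SRSF2, SRSF10 and SRSF11 were added after their values were seen. Lists of other splicing genes are named by the 2 largest changes; 1 such gene is not reported here. With a library left out, the genes tested with all libraries were kept. All members without SCR DMSO replicate 2 was an alternative chosen after seeing the data. There were 28 date-named rows, tested but not named. GC content and spans are from GENCODE release 44.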

Additional observations from a re-analysis of the deposited data

How the results depend on the processing

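With AAI in SCR cells, the 1 member called higher became 0 with no filter, with a mean CPM of at least 5 and with median-ratio size factors, 2 without AC010970.2, 9 with all 4 groups in the fit and 6 with the replicate block, and 0 to 3 with a library left out; the 0 called lower became 1 with all 4 groups, and 0 to 1 with a library left out. With AAI in siB cells, all 4 groups in the fit gave 4 higher and 2 lower, and the median ran from 0.040 to 0.26 with a library left out. For the knockdown under AAI, the replicate block gave 1 higher and 13 lower, and leaving out a library gave 0 to 8 lower. For the knockdown in DMSO the median turned sign, from -0.07, to 0.13 without SCR DMSO replicate 1, 0.017 without siB DMSO replicate 2 and 0.014 without siB DMSO replicate 3 (range -0.25 to 0.13). The cause of these shifts was not tested. In the remaining pairs of groups, whose same-numbered libraries did not all deviate together, the block gave 15 higher and 8 lower with AAI in siB cells, and 0 and 0 in DMSO and for the interaction. The members named by size or lowest p kept their sign in their own comparison under its alternatives. Outside that rule SRSF11 with AAI in SCR cells went from 0.59 to -0.05 without SCR DMSO replicate 2, where 11 of 40 members changed sign. SRSF6 kept its call in 7 of 14, HNRNPD under AAI in 12 and SRSF7 in 7, and TRA2A with AAI in siB cells, HNRNPA0 and HNRNPUL1 there in 14. With 3 libraries a group, the spread of SCR DMSO limits what can be seen in SCR cells and in the interaction, and gene sums cannot show a shift between isoforms.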
